A study of Sus scrofa with 6 samples.

Results

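The 5 genes described here concern blood vessel growth and vessel identity, and were followed in porcine cartilage and in cultures of its chondrocytes. They were VEGFA, ANGPT1, PECAM1, CLDN5 and PDGFRB, chosen by name, and every probe set that the array's annotation assigns to 1 of these symbols was taken. There were 11 such probe sets among 23999 that are not controls, and the 5 genes stand among 6765 with a single symbol on the array. VEGFA had 4 probe sets, ANGPT1, PECAM1 and PDGFRB had 2 each, and CLDN5 had 1. Total RNA of 6 samples was measured on 6 Affymetrix arrays, 1 per condition. They were native growth plate cartilage, growth plate chondrocytes cultured to day 10 and to day 20, native articular cartilage, and articular chondrocytes cultured to the same days. The labels name these as day 10 and day 20 of differentiation in cell culture. Collagenase freed the cells, which grew at 37 °C with 5% oxygen and 5% carbon dioxide in the gas phase. Their medium was DMEM/Ham's F12 with FBS and antibiotics, and no other treatment of a group is named in the sources used here. The breed, age and number of pigs, and whether animals were pooled, are not given in the sources used here.

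VEGFA encodes the main secreted growth factor of endothelial cells, and low oxygen raises its transcription through hypoxia-inducible factors. In the growth plate, hypertrophic chondrocytes are known to secrete it at the border where vessels enter cartilage. ANGPT1 encodes angiopoietin 1, the ligand that activates the endothelial receptor TEK and steadies the vessel wall, and perivascular cells are a usual source of it. PECAM1 encodes an adhesion protein of endothelial junctions, and CLDN5 a tight junction protein of endothelium. PDGFRB encodes the receptor through which platelet-derived growth factor recruits pericytes, and fibroblasts and other mesenchymal cells carry it too. Mature, healthy articular cartilage has no vessels inside its matrix, and whether the tissue here was mature is not given in the sources used.

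Signals are linear intensities, given in the order native, day 10, day 20. A floor was set at a signal of 36.1, the 40th percentile of all signals, and a signal under it was raised to it before log2 was taken, so that a fold against such a signal is a lower bound. Of the 11 probe sets, 10 lay above the floor on at least 2 arrays and were tested among 15636. An additive model of tissue and stage was fitted with limma, and a probe set was called where it differed at least 2-fold and its Benjamini-Hochberg adjusted p lay under 0.05. There were no replicates, so its error is the departure of the 6 arrays from a sum of a tissue and a stage effect. A ratio of single arrays had no replicate check and was counted at 4-fold or 2-fold without a test. The cartilage matrix genes COL2A1 and ACAN had high signals on all arrays on their brightest probe sets, while the other probe set of each lay below the floor throughout. COL2A1 had signals of 1615, 1361 and 1603 in growth plate samples, against 2929, 1164 and 1689 in articular ones, and ACAN had 14874, 12466 and 6596 against 15883, 10781 and 10267. The median signal of an array lay between 59.5 and 71.5, lowest in native articular cartilage, and 58.6% to 61.0% of its probe sets lay above the floor. That array also stood apart from the rest. Its mean correlation of log2 signals with the other 5 arrays was 0.882, where the other arrays had 0.926 to 0.933, and differences of the 5 genes that turn or move by over 1.5 times without it are given without it as well.

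In the fit, 0 of the 10 probe sets were called between growth plate and articular samples, 0 between cultured and native samples and 0 between day 20 and day 10. Over all probe sets 0% were called between tissues and 0% between days. Between cultured and native samples 0.0064% were, which was 1 probe set, of the smooth muscle actin ACTG2. At an unadjusted p under 0.05, limma gave 4 of the 10 between tissues, where 9.57% of all probe sets passed, 3 between culture and native tissue, where 18.4% passed, and 4 between the culture days, where 12.7% passed. These few probe sets of 5 genes share arrays and are not independent of each other. The genes were chosen with earlier results of these data known, and how far that choice raised these counts cannot be told.

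**Figure D1:**
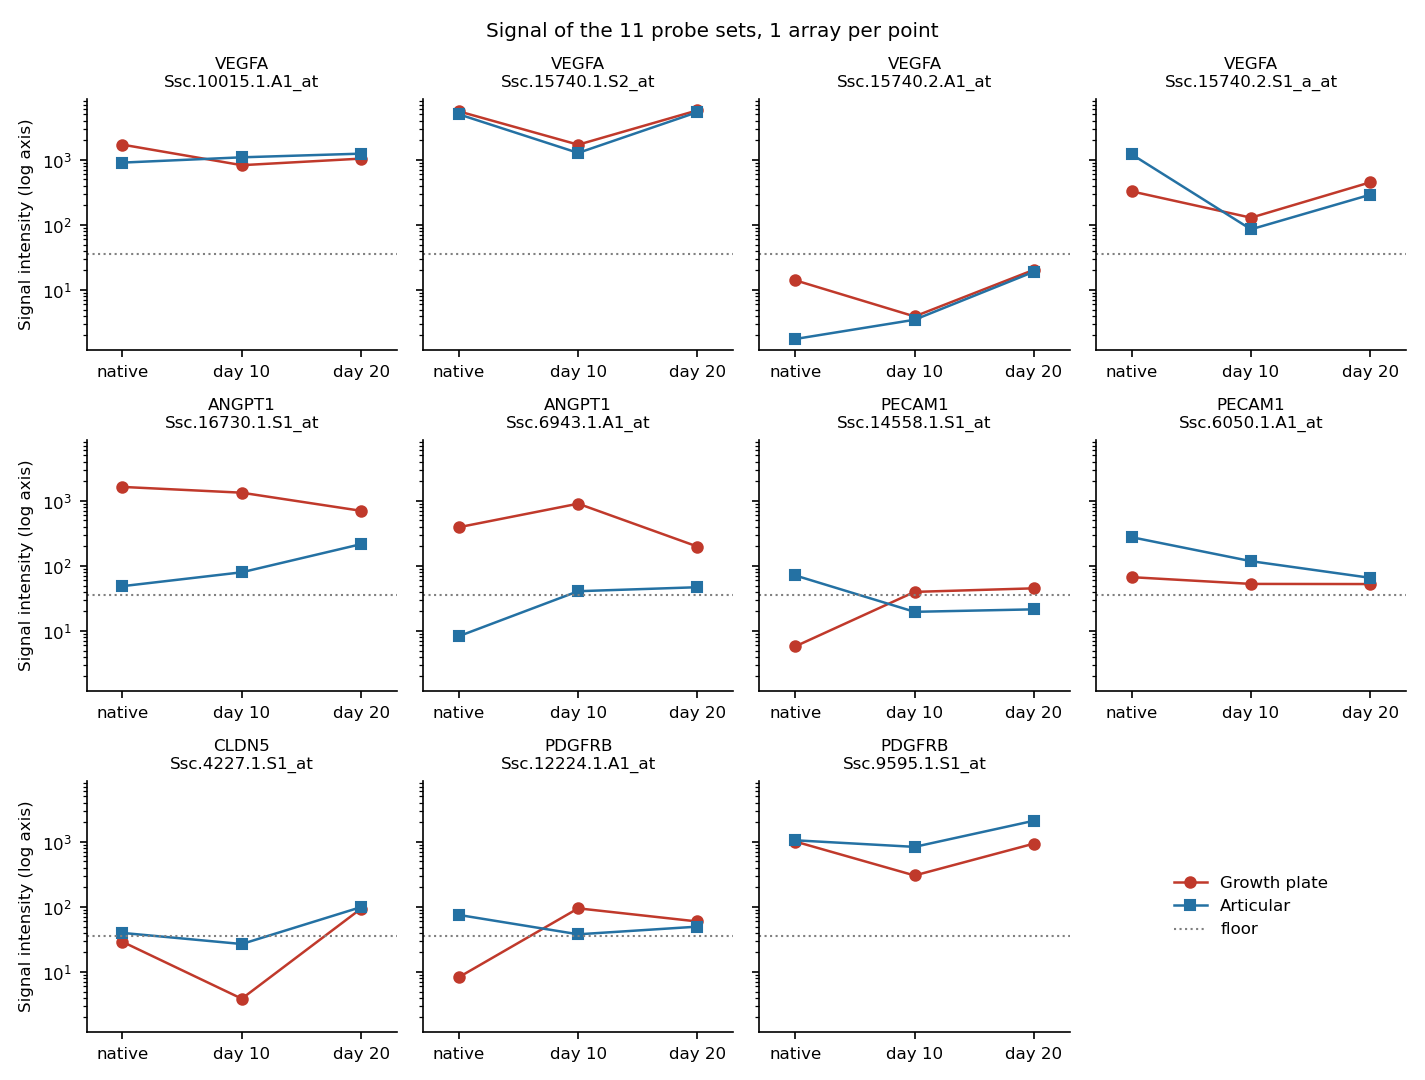
Signal intensity of the 11 probe sets on a log axis against stage (native, day 10, day 20), with growth plate as red circles and articular as blue squares, 1 array per point; the dotted line is the floor of 36.1. ANGPT1 is higher in growth plate on both probe sets at each stage, and VEGFA Ssc.15740.1.S2_at has its low point at day 10 in both tissues.

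The ligands were compared between the tissues and over the time in culture. ANGPT1 was higher in growth plate than in articular samples at every stage and on both of its probe sets. Ssc.16730.1.S1_at had signals of 1642, 1338 and 704 in growth plate samples, against 48.8, 79.8 and 216 in articular ones. The lowest growth plate signal was above the highest articular one. Growth plate was thus 33.6-fold higher in native tissue, 16.8-fold at day 10 and 3.26-fold at day 20. Ssc.6943.1.A1_at had signals of 394, 907 and 198 in growth plate samples, against 8.31, 40.8 and 47.0 in articular ones. Its tissues did not overlap either, and growth plate exceeded articular by at least 10.9-fold in native tissue, 22.2-fold at day 10 and 4.22-fold at day 20. The share of all tested probe sets whose tissues do not overlap is not given here.

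Both ANGPT1 probe sets were at least 2-fold higher in growth plate in 3 of 3 pairs of arrays, which 0.652% of all tested probe sets were. Averaged over the stages, the log2 difference was 3.61 ± 0.64 (SE) for Ssc.16730.1.S1_at, with a limma adjusted p of 0.269. It was 3.33 ± 0.50 for Ssc.6943.1.A1_at, with a limma adjusted p of 0.204, where the native articular signal had been raised to the floor. Neither passed the threshold. Without native articular cartilage the differences were 2.89 and 3.27, with limma adjusted p-values of 0.391 and 0.390. Counted over all 11 probe sets and 7 pairs of single arrays, 9 of 77 ratios reached 4-fold. The untested VEGFA probe set lay below the floor on all arrays, so its ratios could not. Depending on the pair, 1.04% to 6.65% of all tested probe sets reached 4-fold in either direction. Of the 9 ratios, 5 were of ANGPT1 between the tissues. Both its probe sets passed 4-fold in native tissue and at day 10, and 1 of them, Ssc.6943.1.A1_at, did at day 20. Over all tested probe sets 3.81%, 0.608% and 0.409% were at least 4-fold higher in growth plate at those stages.

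The ANGPT1 ratio was smallest at day 20, and the day 20 minus day 10 differences had opposite signs in the tissues. In growth plate cultures Ssc.16730.1.S1_at had a signal of 704 at day 20 against 1338 at day 10, and in articular cultures it had 216 against 79.8. In log2 these day differences were -0.93 in growth plate and 1.44 in articular cultures. Those of Ssc.6943.1.A1_at were -2.19 in growth plate, where 0.774% of all tested probe sets were at least 4-fold lower at day 20, and 0.20 in articular cultures. The difference between the tissues was not tested. Across the 6 arrays the log2 signals of the probe sets had a Pearson's r of 0.931 with each other, as a description over arrays that share tissues and stages.

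**Figure D2:**
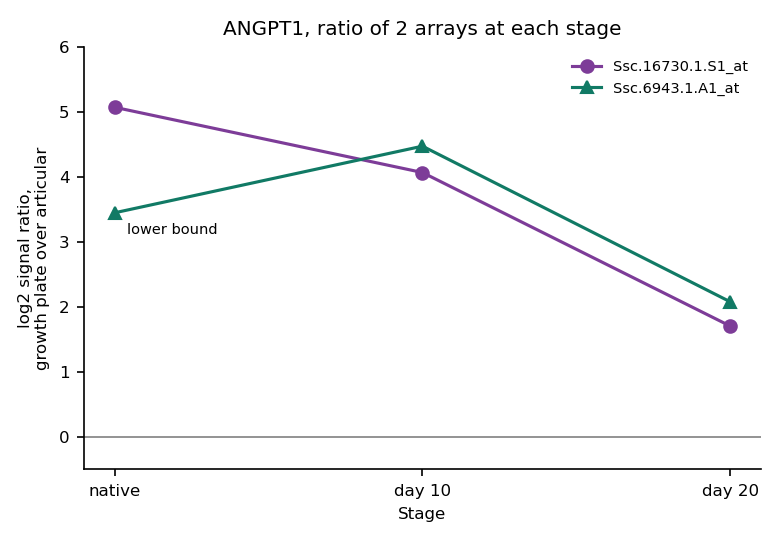
Log2 signal ratio of growth plate over articular samples for the 2 ANGPT1 probe sets at each stage, each point from 2 arrays; the native point of Ssc.6943.1.A1_at is a lower bound. Every ratio is above 0, and both probe sets have their smallest ratio at day 20, at 1.70 and 2.08.

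VEGFA was lower at day 10 than at the other stages in both tissues on its brightest probe set. Ssc.15740.1.S2_at had signals of 5588, 1715 and 5792 in growth plate samples, against 5032, 1282 and 5440 in articular ones. Both tissues were high in native cartilage and at day 20 and low at day 10, and the day 10 arrays lay below the other 4. Day 20 was 3.38-fold higher than day 10 in growth plate cultures and 4.24-fold higher in articular cultures, a log2 difference of 1.92 ± 0.21 with a limma adjusted p of 0.219. In articular cultures 0.742% of all tested probe sets were at least 4-fold higher at day 20. Between the tissues the log2 difference was 0.22 ± 0.17, with a limma adjusted p of 0.666. Growth plate was higher by only 1.11-fold in native tissue, 1.34-fold at day 10 and 1.06-fold at day 20. Cultured minus native gave -0.88 ± 0.18, with a limma adjusted p of 0.147, the smallest of the 10 probe sets in that comparison, and -0.83 without native articular cartilage.

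A second VEGFA probe set had the same low point at day 10. Ssc.15740.2.S1_a_at had signals of 328, 129 and 453 in growth plate samples, against 1217, 85.5 and 292 in articular ones. Native articular cartilage was its highest array, and native growth plate cartilage had a signal 3.71-fold lower. Day 10 was 2.54-fold lower than native tissue in growth plate cultures and 14.2-fold lower in articular cultures, a step of at least 4-fold down that 1.82% of all tested probe sets made in articular samples. Day 20 minus day 10 was 1.79 ± 0.68 in log2, with a limma adjusted p of 0.376, and 1.81 and 1.77 in the single tissues. Cultured minus native was -1.69 ± 0.59, with a limma adjusted p of 0.228. That last value rested on native articular cartilage, since it was -0.44 without that array and -2.95 without native growth plate cartilage.

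These 2 of the 10 tested probe sets were at least 2-fold lower at day 10 than in native tissue and at least 2-fold higher at day 20 than at day 10, in both tissues, which 0.39% of all tested probe sets were. This pattern was described after the values were seen. The remaining VEGFA probe sets did not share it. Ssc.10015.1.A1_at had signals of 1718, 830.0 and 1048 in growth plate samples, against 909, 1097 and 1249 in articular ones, and the tissues overlapped. Its day 20 minus day 10 difference was 0.26 ± 0.38 in log2, with a limma adjusted p of 0.827. Ssc.15740.2.A1_at lay below the floor on all 6 arrays, at 1.76 to 20.4, and was not tested. Across the 6 arrays Ssc.15740.1.S2_at had a Pearson's r of 0.816 with Ssc.15740.2.S1_a_at and of 0.427 with Ssc.10015.1.A1_at. Which VEGFA transcripts each probe set reads is not given in the sources used here.

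Other secreted factors of vessel growth were read through a list of 20 genes, of which 10 were on the array with a single symbol and 6 were tested, each gene of this and later lists by its probe set of highest mean signal. None was called in any comparison. The list's median log2 difference was -0.28 between tissues, -0.46 between cultured and native samples and 1.12 between day 20 and day 10, where the medians of all tested probe sets were 0.02, 0.05 and -0.03. ADM, which encodes the vasodilator adrenomedullin and is a hypoxia target, had signals of 3097, 729.7 and 2543 in growth plate samples, against 2515, 436 and 1473 in articular ones. It had the same low point at day 10 as VEGFA, and its day 20 minus day 10 difference of 1.78 ± 0.25 had a limma adjusted p of 0.219. ANGPTL4, a secreted lipase inhibitor induced by hypoxia, had 533, 95.0 and 739 in growth plate samples, against 755, 426 and 682 in articular ones. FGF2, a fibroblast and endothelial growth factor, had 45.1, 2.38 and 88.5 against 116, 33.1 and 80.8, below the floor at day 10 in both tissues on this probe set. Its other probe set lay above the floor on 1 array, the articular day 10 culture, at 46.0.

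ANGPT2, which encodes the angiopoietin that competes with ANGPT1 at TEK, did not have the growth plate excess of ANGPT1 at day 20. It had signals of 543, 568 and 703 in growth plate samples, against 62.0, 277 and 916 in articular ones. Growth plate was 8.75-fold higher in native tissue and 2.05-fold at day 10, and the articular culture was 1.30-fold higher at day 20. Its log2 difference between tissues was 1.26 ± 0.64, with a limma adjusted p of 0.572. CCN1, a matrix protein that promotes vessel growth, had 9756, 6625 and 10096 against 15170, 8972 and 8441.

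Regulators and companions of VEGFA in the hypoxia response formed a list of 16 genes, with 10 on the array and all 10 tested. None was called, and the median log2 difference was 0.27 between tissues, 0.19 between cultured and native samples and 0.34 between the days. HIF1A, the oxygen-regulated transcription factor that activates VEGFA, had signals of 10962, 9984 and 11530 in growth plate samples, against 13896, 10191 and 11228 in articular ones on its brightest probe set. Its protein is controlled mainly by degradation, which an array does not read. A dimmer HIF1A probe set had 332, 154 and 532 against 153, 131 and 249.5, with its lowest signal of each tissue at day 10. EPAS1, the related factor of endothelium and cartilage, had 332, 92.5 and 157 against 1989, 206 and 256. Cultured minus native was -2.29 ± 0.45, with a limma adjusted p of 0.142. EGLN1, a prolyl hydroxylase that marks those factors for degradation, had 2169, 2463 and 3794 against 226, 1775 and 2008.

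Of the list, 3 hypoxia targets were at least 2-fold higher at day 20 than at day 10 in both tissues, where 2.3% of all tested probe sets were. Of the 3 tested VEGFA probe sets, 2 were and Ssc.10015.1.A1_at was not. CA9, a membrane carbonic anhydrase, had signals of 250.3, 119 and 1309 in growth plate samples, against 100.2, 195 and 988 in articular ones. ENO2, a glycolytic enzyme, had 299, 22.0 and 1391 against 23.6, 6.76 and 816. ANKRD37, an ankyrin repeat protein, had 1637, 195 and 3549 against 48.2, 204 and 1248. None of these 3 met the day 10 pattern in both tissues, since in articular samples their native signals were low too. The glycolytic enzymes PGK1 and LDHA had day 20 minus day 10 differences of 0.29 and 0.21. All cultures were labelled with the same oxygen level, and the oxygen that cells experienced was not measured.

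**Figure D3:**
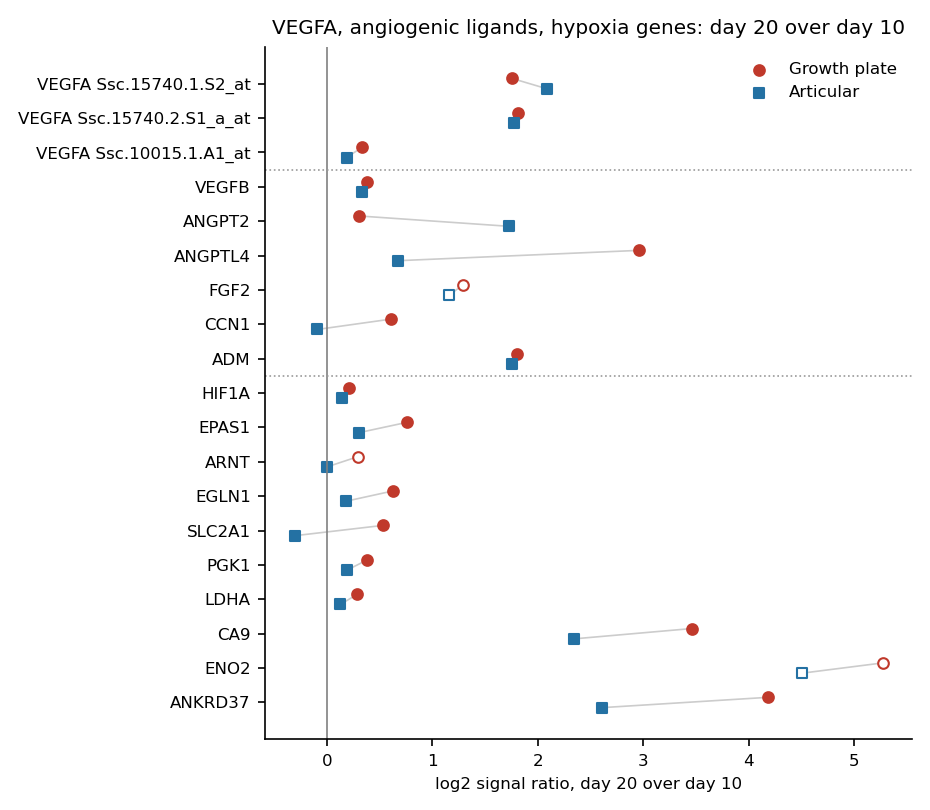
Log2 signal ratio of day 20 over day 10 in growth plate (red circles) and articular cultures (blue squares), each point from 2 arrays, for 3 VEGFA probe sets and the tested genes of the ligand and hypoxia lists; open symbols are bounds set by the floor. ADM and 2 VEGFA probe sets lie between 1.76 and 2.09 in both tissues, and Ssc.10015.1.A1_at lies at 0.34 and 0.19.

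Of 11 listed inhibitors of vessel growth, 7 were on the array and tested, and none was called in any comparison. Their median log2 differences were -0.02 between tissues, 0.02 between cultured and native samples and 0.27 between the days. THBS1, a thrombospondin that restrains endothelial cells, had signals of 6853, 5633 and 6479 in growth plate samples, against 6755, 5756 and 6699 in articular ones, on its brightest probe set, where none of the ratios between the tissues reached 2-fold. Ratios on dimmer THBS1 probe sets did, as at 298 against 112 in native tissue on one of them. THBS2, a related thrombospondin, had 1903, 515 and 4979 against 154, 2617 and 3137. SERPINF1, which encodes the inhibitor PEDF, had 735, 345 and 2018 against 394, 1096 and 2732, and was at least 2-fold higher at day 20 than at day 10 in both tissues. TIMP3, a matrix protease inhibitor that also blocks VEGF binding to KDR, had 461, 754 and 449 against 1681, 179.7 and 193. TIMP2, a related inhibitor, had 3915, 2279 and 3383 against 5312, 4419 and 4048. The cartilage inhibitor CNMD, chondromodulin, was looked for but had no probe set with a single symbol on the array, so it has no value here.

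The endothelial markers PECAM1 and CLDN5 had low signals, of at most 277 and 99.5. PECAM1 on Ssc.6050.1.A1_at had signals of 67.2, 52.9 and 52.6 in growth plate samples, against 277, 118 and 65.6 in articular ones. It was lower in growth plate, by 4.12-fold in native tissue, 2.24-fold at day 10 and 1.25-fold at day 20. The growth plate signals lay close together, and the articular signal was highest in native cartilage. The log2 difference between tissues was -1.17 ± 0.39, with a limma adjusted p of 0.509, and -0.74 without native articular cartilage. On Ssc.14558.1.S1_at PECAM1 had 5.79, 39.9 and 45.2 in growth plate samples, against 71.4, 19.7 and 21.5 in articular ones. Native articular cartilage was the highest array on both probe sets, but in culture growth plate was the higher tissue here, with both articular cultures under the floor. The tissue difference of that probe set was -0.17 ± 0.29, with a limma adjusted p of 0.844, and 0.23 without native articular cartilage. Between single arrays 1.07% of all tested probe sets were lower by 4-fold or more in native growth plate, as Ssc.6050.1.A1_at was.

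CLDN5 on Ssc.4227.1.S1_at had signals of 29.1, 3.87 and 94.2 in growth plate samples, against 39.8, 26.9 and 99.5 in articular ones. It was above the floor in both day 20 cultures and, by little, in native articular cartilage. Day 20 was at least 2.61-fold higher than day 10 in growth plate cultures, and in articular cultures at least 2.75-fold higher, and the fitted log2 difference, with signals under the floor raised to it, was 1.42 ± 0.24 with a limma adjusted p of 0.219. Spread below the floor is not part of that error. Between the tissues the difference was -0.07 ± 0.20, with a limma adjusted p of 0.903, and -0.04 without native articular cartilage.

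Several defining genes of endothelium lay under the floor. The receptors of VEGF and of the angiopoietins, KDR, FLT1, TEK and TIE1, and the junction protein CDH5 and the clotting factor VWF had 14 probe sets, and 0 of them lay above the floor on any array. The highest of these signals was 35.8. The endothelial list held 21 genes, 16 on the array. Of those, 9 lay at or below the floor on all 6 arrays, namely these 6 and ICAM2, NOS3 and SELE, and 6 were tested, with 0 called and medians of -0.05 between tissues, 0.10 between cultured and native samples and 0.10 between the days. Tested beside PECAM1 and CLDN5 were ENG, ESAM and EGFL7, above the floor on all 6 arrays on the probe sets taken. THBD, tested too, lay above it on 4 arrays, at no more than 60.7. ENG, a coreceptor of TGF-beta, had 141, 75.4 and 104 in growth plate samples, against 178, 125 and 139 in articular ones, ESAM, a junction protein, had 89.3, 206 and 106 against 74.5, 82.9 and 127, and EGFL7, a secreted vessel factor, had 210.0, 296 and 356 against 166, 119 and 259. The summed signal of the list ran from 734 to 814 in growth plate and from 624 to 858 in articular samples. In such bulk RNA, fewer cells of a type and less RNA per cell cannot be told apart.

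The receptors list of 15 genes, 10 of them on the array, had 4 tested and 0 called, with medians of 0.17 between tissues, -0.64 between cultured and native samples and -0.30 between the days. Apart from the endothelial receptors above, CALCRL lay below the floor on all arrays. FGFR1, a receptor of FGF2, had signals of 922, 666 and 383 in growth plate samples, against 1881, 731 and 829 in articular ones. EDNRA, an endothelin receptor, had 258, 142 and 96.8 against 43.3, 108 and 105, and EDNRB, the related receptor, had 77.4, 47.2 and 64.2 against 53.0, 52.7 and 59.6. RAMP2, a partner protein of the adrenomedullin receptor, had 435, 334 and 206 against 571, 194 and 186. Cultured minus native was -1.16 ± 0.35 for RAMP2 and -1.07 ± 0.29 for FGFR1, with limma adjusted p-values of 0.200 and 0.174. Blood cell markers were low as well. Of 19 listed genes 11 were on the array, and 8 of them, with PTPRC, CD163 and ALAS2 among them, lay at or below the floor on all arrays. HBB, a globin of red cells, had 234, 426 and 289 in growth plate samples, against 398, 609.9 and 342 in articular ones, with its highest signal of each tissue at day 10 of culture, while the red cell genes ALAS2 and AHSP lay below the floor on all arrays. Of 9 listed osteoclast and osteoblast genes 7 were on the array and 4 tested, and of 12 chondrocyte genes 6 were on the array and tested, with 0 called in either list. CTSK, the collagen-degrading cathepsin of osteoclasts, had 14768, 6548 and 7793 in growth plate samples, against 17802, 5803 and 8225 in articular ones, while ACP5, BGLAP and DMP1, other genes of bone cells, did not exceed 64.6. SOX9, the transcription factor of chondrocytes, had 175, 125 and 118 against 982, 81.0 and 76.8, and was high only in native articular cartilage. The matrix genes COL11A1 and COMP had 1089, 553 and 756 against 378, 431 and 455, and 5152, 5098 and 5326 against 3390, 6170 and 8205.

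PDGFRB was well above the floor on 1 of its probe sets. Ssc.9595.1.S1_at had signals of 1013, 305 and 941 in growth plate samples, against 1059, 839 and 2117 in articular ones. The native tissues lay close together, and the growth plate cultures were lower than the articular cultures, by 2.75-fold at day 10 and 2.25-fold at day 20. Of all tested probe sets 1.22% were lower by 2-fold or more in growth plate at both culture days. The log2 difference between tissues was -0.90 ± 0.32 over the stages, with a limma adjusted p of 0.509. Day 20 was higher than day 10, by 3.09-fold in growth plate and 2.52-fold in articular cultures, a log2 difference of 1.48 ± 0.39 with a limma adjusted p of 0.276. Cultured minus native was -0.29 ± 0.34, with a limma adjusted p of 0.664, and -0.92 without native articular cartilage.

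The other PDGFRB probe set ran differently. Ssc.12224.1.A1_at had signals of 8.30, 95.2 and 59.7 in growth plate samples, against 75.3, 37.9 and 49.8 in articular ones, close to the floor. Its growth plate culture was 2.51-fold higher than the articular one at day 10. Across the 6 arrays the log2 signals of the PDGFRB probe sets had a Pearson's r of -0.543, so the statements above hold for Ssc.9595.1.S1_at alone. In all, 4 of the 10 tested probe sets were at least 2-fold higher at day 20 than at day 10 in both tissues, where 2.3% of all tested probe sets were. They were Ssc.9595.1.S1_at, the CLDN5 probe set and the 2 VEGFA probe sets. Since the genes were chosen with earlier results of these data known, this count is a description only.

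Genes of pericytes and smooth muscle, with which PDGFRB is often measured, were higher in culture in every tested case but PDGFRB. The list held 12 genes, 8 on the array and 6 tested, with 0 called, and its median cultured minus native log2 difference was 2.001, where that of all tested probe sets was 0.05. CNN1, a smooth muscle calponin, had signals of 42.5, 157 and 561 in growth plate samples, against 37.8, 188 and 1472 in articular ones. Its cultured minus native difference was 3.30 ± 0.42, with a limma adjusted p of 0.126. ACTA2, the smooth muscle actin of contractile cells, had 11456, 14481 and 17679 against 2642, 14768 and 19493, and TAGLN, an actin-binding protein, had 758, 3483 and 6398 against 2365, 5574 and 7903. DES, an intermediate filament of muscle, had 29.9, 127 and 326 against 10.1, 247 and 291, and KCNJ8, a potassium channel of pericytes, had 3.22, 63.3 and 118 against 2.15, 82.1 and 599. Cultured fibroblastic cells are also known to express CNN1, ACTA2 and TAGLN. RGS5, which marks pericytes more narrowly, had 14.5, 19.3 and 32.1 in growth plate samples, against 27.6, 619 and 34.4 in articular ones, above the floor only on the articular day 10 array, where growth plate was lower by at least 17.1-fold. MCAM, an adhesion protein of pericytes and endothelium, lay above the floor on 1 array on one probe set and on 2 on the other, all articular cultures, at no more than 55.6.

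**Figure D4:**
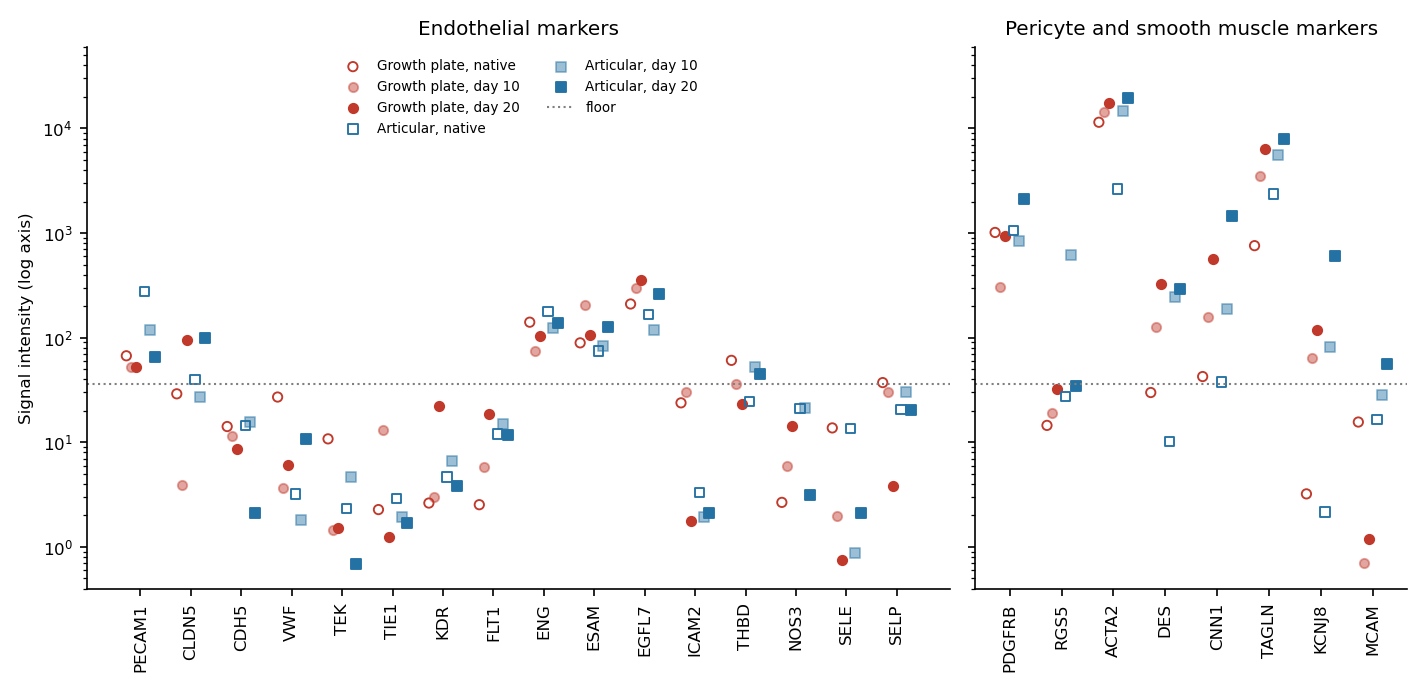
Signal intensity on a log axis of the endothelial and the pericyte and smooth muscle markers on the array, each by its probe set of highest mean signal, in growth plate (red circles) and articular samples (blue squares); open symbols are native tissue, pale ones day 10 and solid ones day 20, 1 array each, and the dotted line is the floor of 36.1. CDH5, VWF, TEK, TIE1, KDR and FLT1 lie under the floor on all 6 arrays, while ACTA2 and TAGLN lie above it on all 6.

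Genes whose log2 signal followed each probe set most closely over the 6 arrays were taken from about 7240 probe sets with a single symbol and a signal above the floor on at least 3 arrays. With 6 arrays many probe sets correlate highly, and the values are a description. ANGPT1 on Ssc.16730.1.S1_at was most like ENPP2, which encodes the secreted enzyme autotaxin, with a Pearson's r of 0.992. ENPP2 had signals of 3359, 2955 and 1413 in growth plate samples, against 135, 293 and 443 in articular ones. Next came SENP2 and NEO1, at 0.990 for both. VEGFA on Ssc.15740.1.S2_at was most like SMYD3, COL5A1 and KDM5A, at 0.991, 0.990 and 0.984, and on Ssc.15740.2.S1_a_at most like RGCC, RASSF1 and the immediate early gene NR4A2, at 0.999, 0.995 and 0.994. NR4A2 had signals of 144, 62.8 and 297 in growth plate samples, against 956, 32.4 and 174 in articular ones. PDGFRB on Ssc.9595.1.S1_at was most like RARRES1, a gene induced by retinoids, at 0.986, with 2447, 833 and 2211 against 2241, 2082 and 3546. The PECAM1 probe set Ssc.6050.1.A1_at was most like ZCRB1, SRRM1 and BAG1, at 0.992, 0.990 and 0.990. For CLDN5 the closest were KIAA0391, LOC100510975 and MAPK14, at 0.996, 0.993 and 0.991, and for ANGPT1 on Ssc.6943.1.A1_at they were CLCN3, SHAS2 and PDE6C, at 0.987, 0.987 and 0.981. Both CLDN5 and KIAA0391 lay under the floor in native growth plate cartilage and both day 10 cultures, so their raised signals there were equal. VEGFA on Ssc.10015.1.A1_at had its highest value, 0.980, with ATP5I. The dimmer PECAM1 and PDGFRB probe sets, Ssc.14558.1.S1_at and Ssc.12224.1.A1_at, had theirs with FUNDC2 and CLTC, at 0.995 and 0.962. That PECAM1 probe set was raised to the floor in native growth plate cartilage and both articular cultures.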

How the data were processed

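Signal intensities per probe set were made by the authors with GCOS 1.4, per the submitters' processing notes, and deposited for 6 porcine arrays. The scaling target and algorithm settings are not given in the sources used here. Trimmed means, without the top and bottom 2% of probe sets, agreed between arrays to a ratio of 1.00005, and the deposited intensities were not normalized again. Of 24123 probe sets, 124 controls were left out. Signals were raised to the floor, the 40th percentile (36.1), and log2 was taken. Probe sets above it on at least 2 arrays were fitted with limma 3.58.1 in R 4.3.3 (files read with the data.table package, version 1.17.8), as tissue plus stage with an intensity trend, with 2 residual and 3.84 prior degrees of freedom. Every probe set was a feature, because each one of a gene is described. The script was tested on simulated data. Symbols came from the platform's annotation, updated through RefSeq. List genes used their probe set of highest mean signal. Members, lists and tests were chosen with earlier results of these data known. Named from each list were up to 4 genes with the largest tissue difference, up to 4 with the largest culture difference and, where measured, KDR, FLT1, TEK, PDGFB, CDH5, VWF, HIF1A, CNMD, HBB, COL2A1 and ACAN. Genes of like pattern were the 3 of highest correlation. Other genes named, such as PGK1, LDHA, THBS1, RGS5, MCAM and CALCRL, were chosen after their values were seen. Also tried were median centring, quantile normalization, other floors, a pseudocount of 16, other filters, 1 probe set per gene, no intensity trend, no fold rule, other size rules and leaving out each array. The number of arrays limits the precision. The p-values set a difference against the departure of these arrays from a sum of tissue and stage effects, combined with the prior. They do not measure a spread between animals. Plots were drawn with matplotlib 3.10.9.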

Additional observations from a re-analysis of the deposited data

Results flagged for a closer look

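Some probe sets moved in opposite directions in the growth plate and articular arrays, and the difference between the tissues was not tested. Cultured minus native, ANGPT1 Ssc.16730.1.S1_at was -0.76 in growth plate and 1.43 in articular samples in log2, a difference of -2.19. VEGFA Ssc.10015.1.A1_at was -0.88 and 0.36, a difference of -1.25. PECAM1 Ssc.14558.1.S1_at was 0.23 and -0.98, a difference of 1.22, and PDGFRB Ssc.12224.1.A1_at was 1.06 and -0.79, a difference of 1.85, both near the floor.

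Day 20 minus day 10, ANGPT1 Ssc.16730.1.S1_at was -0.93 in growth plate and 1.44 in articular cultures, a difference of -2.36. ANGPT1 Ssc.6943.1.A1_at was -2.19 and 0.20, a difference of -2.40. PDGFRB Ssc.12224.1.A1_at was -0.67 and 0.39, a difference of -1.06.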

How the results depend on the processing

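No member probe set was called under any alternative except 1. The exception was VEGFA Ssc.15740.2.S1_a_at, cultured minus native, when native growth plate cartilage was left out. That fit has 1 native array, and many more of all probe sets were called in it too, as given below. The log2 difference of this VEGFA probe set ran from -2.95 to -0.44 over the arrays left out. Over all alternatives the ANGPT1 tissue difference ran from 2.87 to 4.57 on Ssc.16730.1.S1_at, with adjusted p from 0.168 to 0.860, and from 1.61 to 3.96 on Ssc.6943.1.A1_at, with adjusted p from 0.139 to 0.857. The day difference of VEGFA Ssc.15740.1.S2_at ran from 1.77 to 2.07, with adjusted p from 0.135 to 0.987. Of 441 fitted values under an alternative, 410 kept direction and side of the threshold and 30 reversed. Of 350 ratios of single arrays, 307 kept within their limits and 43 moved.

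The calls over all probe sets moved more. Between tissues, where 0 were called, there were 5 with quantile normalization, 6 with median centring, 6 with a floor at the 25th percentile, 10 with a pseudocount and 3 with 1 probe set per gene. Cultured minus native, where 1 was called, there were 3 with median centring, 2 with a floor at the 25th percentile, 2 with a pseudocount, and 0 with a floor at the 60th percentile, no filter or 1 probe set per gene. Leaving out each array gave 0 to 564 there, with 564 without native growth plate cartilage. Of the 77 member ratios, 32 reached 2-fold and 5 reached 8-fold, against 9 at 4-fold. Over all tested probe sets 7.63% to 26.8% reached 2-fold in either direction, depending on the pair, and 1.04% to 6.65% reached 4-fold. The share at 8-fold is not given here.

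Median centring reversed the VEGFA Ssc.10015.1.A1_at tissue difference to -0.00400. The PDGFRB Ssc.12224.1.A1_at tissue difference was -0.24 with a floor at the 25th percentile and -0.22 with a pseudocount. With a floor at the 60th percentile the culture and day differences of ANGPT1 Ssc.16730.1.S1_at were -0.21 and -0.13. The PECAM1 Ssc.14558.1.S1_at culture difference was 0.084 with a pseudocount. The cause was not tested. Probe sets that a stricter filter or floor left out, or that were not the one taken for their gene, have no value there.

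Leaving out each array in turn reversed further values, and each such fit has 1 residual degree of freedom and takes the lone array to vary like the others. Between tissues the ranges were -0.33 to 0.33 for VEGFA Ssc.10015.1.A1_at, -0.65 to 0.61 for VEGFA Ssc.15740.2.S1_a_at, -0.42 to 0.23 for PECAM1 Ssc.14558.1.S1_at and -0.40 to 0.80 for PDGFRB Ssc.12224.1.A1_at. Cultured minus native they were -0.88 to 0.36 for VEGFA Ssc.10015.1.A1_at, -0.76 to 1.43 for ANGPT1 Ssc.16730.1.S1_at, -0.28 to 0.66 for ANGPT1 Ssc.6943.1.A1_at, -0.98 to 0.23 for PECAM1 Ssc.14558.1.S1_at, -0.79 to 1.06 for PDGFRB Ssc.12224.1.A1_at and -0.92 to 0.33 for PDGFRB Ssc.9595.1.S1_at. Day 20 minus day 10 they were -0.11 to 0.63 for VEGFA Ssc.10015.1.A1_at, -1.18 to 1.69 for ANGPT1 Ssc.16730.1.S1_at, -0.28 to 0.46 for PECAM1 Ssc.14558.1.S1_at, -1.07 to 0.21 for PECAM1 Ssc.6050.1.A1_at and -1.002 to 0.72 for PDGFRB Ssc.12224.1.A1_at. The fit matched the tissues by stage. No pairing by animal was possible because each condition had 1 array and the labels carry no animal or replicate numbers. Signals near the floor limit what PECAM1, CLDN5 and PDGFRB Ssc.12224.1.A1_at can show.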
